A study of Homo sapiens with 15 samples.

Results

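The comparison set A549 cells exposed to the compound BB2-125 against A549 cells exposed to the compound BB2-162, both in hypoxia. A549 is an established human lung adenocarcinoma line. The arrays were chosen by their titles, 3 for BB2-125 and 3 for BB2-162, which makes 6 of the 15 arrays of the series, and they were described across 16005 genes. Each compound was at 10 µM in 0.1% DMSO, was added 6 h before oxygen was lowered in a gas-generating pouch, and stayed on the cells for the 42 h that followed. Vehicle cultures, 3 in hypoxia and 3 in normoxia, received the same 0.1% DMSO and are used here as reference levels. Both compounds are known by code names, the series' design text calls them transcriptional inhibitors, and no difference in their structures is described here. The labels call the 3 samples of a group biological replicates and say no more of their independence, and p-values here reflect only how far these samples scatter, which may be technical. No array of either compound in normoxia was analysed here, and each compound was given at 1 dose and 1 time.

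Hypoxia-inducible factor (HIF) is a heterodimer of an oxygen-sensitive alpha subunit, HIF1A or EPAS1, and the constant subunit ARNT. In normal oxygen, prolyl hydroxylases of the EGLN family mark the alpha subunit for destruction through VHL. In hypoxia it accumulates, binds hypoxia response elements and recruits the coactivators EP300 and CREBBP, a contact for which CITED2 competes. Its targets in lung carcinoma cells include genes of glucose uptake, angiogenesis, matrix modification and cell migration.

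The 6 arrays had similar median intensities, between 79.29 and 80.29 for BB2-125 and between 79.49 and 84.6 for BB2-162. BB2-162 replicate 1 stood apart from its own group. It correlated with the other BB2-162 arrays at 0.9782 and 0.9792 and with BB2-125 replicate 2 at 0.9812, across the 16005 genes on the log2 scale. Its log2 values deviated from the group mean with a root mean square of 0.221, where the other 5 arrays had 0.102 to 0.163. Both compounds were nonetheless separate on the first principal component of the 6 arrays, which held 61.5% of the variance. The BB2-125 arrays lay between 19.6 and 27.3 on it and the BB2-162 arrays between -33.9 and -10.4, with replicate 1 nearest to BB2-125. Of 9 lung carcinoma epithelial markers, all 9 were above the dim level, from EPCAM at a mean of 5.59 to KRT8 at 12.98. That level does not set the labelled cell type apart. Of the markers on the array, 8 of 10 endothelial and 7 of 10 leukocyte ones were above it too. The dim level is the 25th percentile of all probe sets of an array, a mean log2 intensity of 4.73.

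Differences below are BB2-125 minus BB2-162 on the log2 scale, so a positive value means more signal with BB2-125. The value after ± is limma's standard error of the difference, with 3 arrays in each group, and p-values are limma's after Benjamini-Hochberg adjustment over all 16005 genes. Genes with an adjusted p below 0.05 count as called. By that rule 4182 genes, 26.1% of those tested, were called, of which 2672 were higher with BB2-125 (16.7% of the genes tested) and 1510 were lower (9.43%). Of the called genes 3820 had no overlap between the arrays of the compounds. Over all genes tested, the called ones included, 5876 (36.7%) had none. The call and the overlap rest on the same arrays, so the overlap is no separate support for a call. Most differences were small: the median absolute difference of the called genes was 0.50, and 305 reached 2-fold, 223 of them higher and 82 lower with BB2-125. A gene that was not called was usually bounded rather than unknown. Of the 11823 such genes, 11767 had a 95% confidence interval wholly within a 2-fold change either way, and 8985 had one within 0.5 on the log2 scale.

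The count depended on the arrays fitted: with the 6 compound arrays alone, 2582 genes were called. It also depended on single arrays. Without BB2-162 replicate 1, the array that stood apart, 6208 genes were called (3499 higher and 2709 lower with BB2-125). Without BB2-162 replicate 3 the count was 2645, and the genes lower with BB2-125 numbered 826; without BB2-125 replicate 1 they numbered 860. Direction also varied with signal. In the brightest 25% of genes 1143 were higher and 467 lower with BB2-125, at a median difference of 0.13, whereas in the dimmest 25% 199 were higher and 246 lower, at a median of -0.10. The part of signal strength in the gene groups below was not tested. Counts of 0 to 2 members of a gene list often changed by 1 when a single array was left out, and such changes are given only where the count is discussed. Centring each array on its median raised the share of called genes higher with BB2-125 from 63.9% to 74.4% (2944 higher, 1011 lower).

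**Figure D1:**
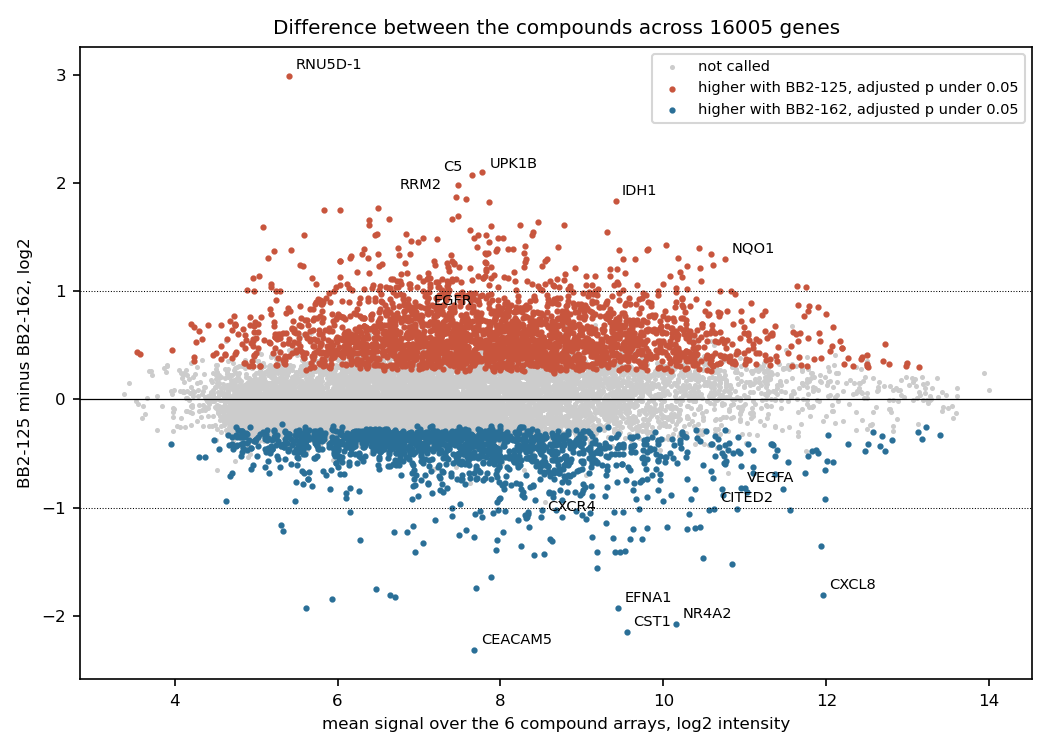
Difference between the compounds (BB2-125 minus BB2-162, log2) on the vertical axis against mean signal over the 6 compound arrays (log2 intensity) on the horizontal axis, 1 point per gene for 16005 genes. Red points are the 2672 genes called higher with BB2-125, blue points the 1510 called lower, grey points were not called, and dotted lines mark 2-fold.

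The largest differences were taken from called genes above the dim level with either compound, whose arrays did not overlap between the compounds. Of the 12 largest in favour of BB2-125, 8 were in genes that act in cell division, recombination or DNA synthesis. RRM2, the small subunit of ribonucleotide reductase, read 8.70, 8.28 and 8.45 with BB2-125 and 6.64, 6.61 and 6.23 with BB2-162. The groups were far apart, a difference of 1.98 ± 0.15 (3.95-fold, adjusted p = 1.38e-07), and the mean in the hypoxic vehicle, 7.70, fell between them. TOP2A, the topoisomerase that untangles chromosomes before mitosis, read 8.90, 8.70 and 8.70 against 7.27, 6.86 and 6.72 (1.82 ± 0.17). CDKN3, a phosphatase that acts on cyclin-dependent kinases, differed by 1.87 ± 0.18, and CEP55, needed for the final cut between daughter cells, by 1.85 ± 0.15. DLGAP5, a spindle protein, differed by 1.75 ± 0.18, PBK, a mitotic kinase, by 1.75 ± 0.16, PRIM1, the catalytic subunit of primase, by 1.69 ± 0.17, and MND1, a recombination factor, by 1.77 ± 0.23. The lack of overlap between the compounds in these 8 genes was fixed by that choice.

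The other 4 included the 3 largest. IDH1, the cytosolic NADP-dependent isocitrate dehydrogenase, read 10.24, 10.47 and 10.28 with BB2-125 and 8.84, 8.42 and 8.24 with BB2-162 (1.83 ± 0.14, 3.56-fold). Its mean was 7.91 in the hypoxic vehicle and 11.53 in the normoxic vehicle, so both compounds lay between those levels and BB2-125 nearer the normoxic one. Complement component C5 read 8.88, 8.56 and 8.62 against 7.05, 6.43 and 6.36. The BB2-162 arrays lay around the hypoxic vehicle mean of 6.72, and the BB2-125 arrays between it and the normoxic mean of 9.75. UPK1B, a tetraspanin of the urothelial surface, read 9.06, 8.59 and 8.81 against 6.88, 6.76 and 6.53 (2.10 ± 0.16, 4.29-fold). RNU5D-1, a spliceosomal RNA, had the largest difference, 2.99 ± 0.59, but its BB2-125 arrays were scattered at 8.70, 5.32 and 6.69. With BB2-162 it was below the dim level (3.08, 4.82 and 3.83), and counted from that level the difference was 2.18.

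The 12 largest differences in favour of BB2-162, taken in the same way, were in genes of varied function. VTRNA1-1, called at -1.74, was left out because its arrays overlapped. CEACAM5, the carcinoembryonic antigen, read 6.57, 6.53 and 6.45 with BB2-125 and 9.14, 8.56 and 8.81 with BB2-162. That is a difference of -2.32 ± 0.15 (4.99-fold, adjusted p = 5.29e-08), with the hypoxic vehicle between them at 8.12. CST1, a salivary-type cystatin that inhibits cysteine proteases, read 8.88, 8.36 and 8.20 against 10.75, 10.74 and 10.40 (-2.15 ± 0.16). EFNA1, an ephrin ligand, had the smallest standard error of these 24 genes, with 8.69, 8.35 and 8.39 against 10.40, 10.41 and 10.42 (-1.93 ± 0.10). Its hypoxic vehicle mean was 10.09 and its normoxic mean 7.44, so the BB2-162 arrays stayed near the hypoxic level and the BB2-125 arrays lay lower.

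NR4A2, a nuclear receptor made as an immediate-early gene, read 8.99, 9.35 and 9.01 against 11.55, 10.83 and 11.20 (-2.08 ± 0.17), and here the vehicle mean of 8.35 was nearer to BB2-125. MMP10, a secreted metalloproteinase, differed by -1.81 ± 0.13, RASGRP3, an activator of Ras, by -1.75 ± 0.20, and SNAI2, a repressor of epithelial genes, by -1.64 ± 0.18. TNS1, a focal adhesion protein, differed by -1.56 ± 0.12, with 10.77 in the hypoxic vehicle, above both compounds. TCN1, which carries vitamin B12, read 6.54, 6.60 and 6.61 with BB2-162 and fell near or below the dim level with BB2-125 (4.61, 4.77 and 4.58). Counted from the dim level its difference was -1.86. The arrays of the compounds did not overlap in any gene of this and the previous paragraph, because the choice of genes required it.

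**Figure D2:**
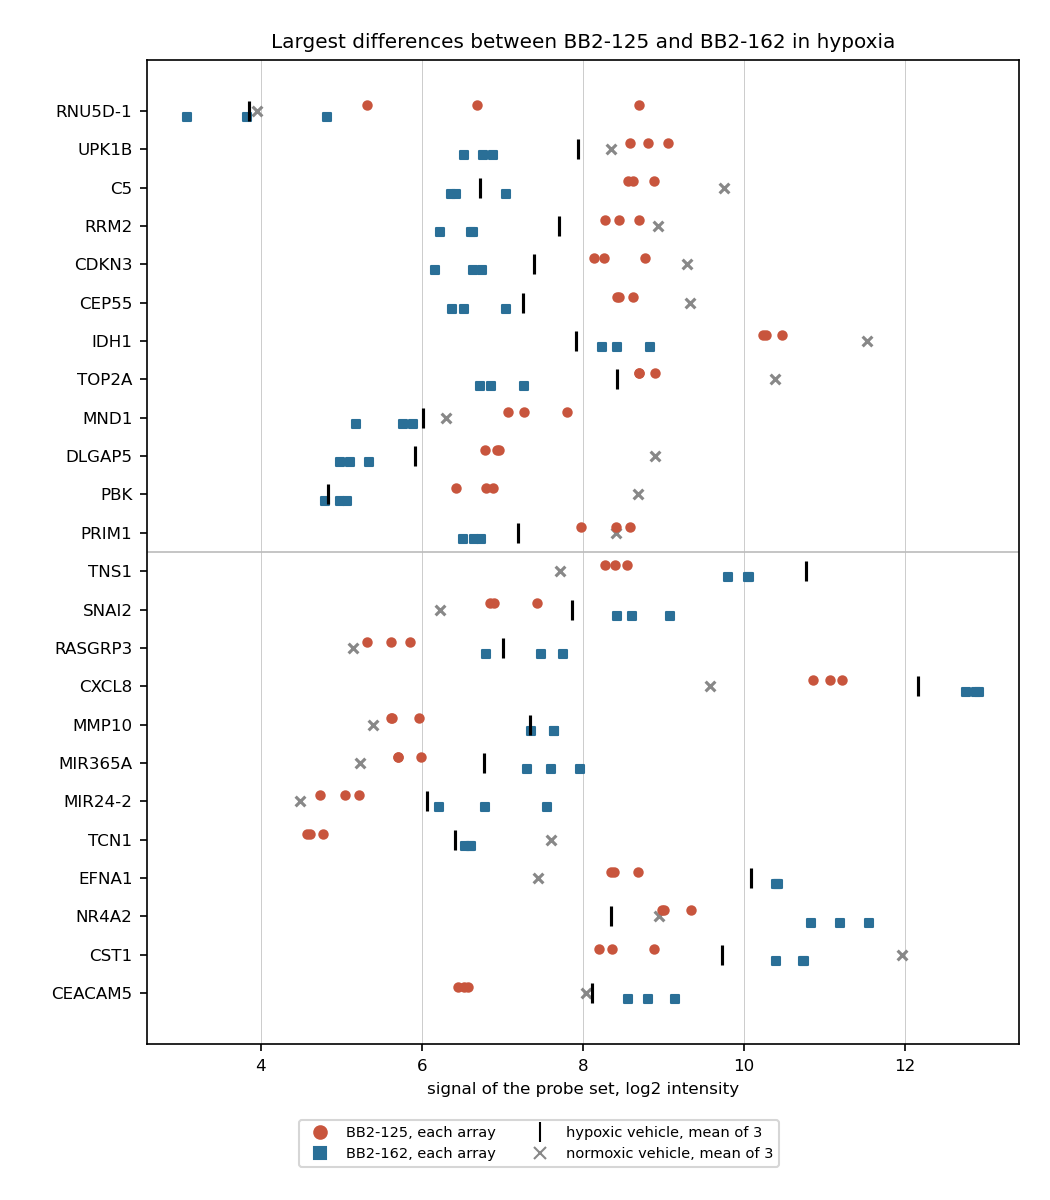
Log2 intensity (horizontal axis) of the 12 largest differences in each direction among called genes whose arrays did not overlap between the compounds. Genes higher with BB2-125 are above the line and those lower are below it. Circles are BB2-125 arrays, squares BB2-162 arrays, bars the hypoxic vehicle mean and crosses the normoxic vehicle mean of 3 arrays; CEACAM5 sits between 6.45 and 6.57 with BB2-125 and between 8.56 and 9.14 with BB2-162.

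The HIF targets listed here were on balance lower with BB2-125. Most glycolysis and collagen-modifying genes were listed apart. The list of 40 targets was drawn up with earlier results of these data known, and 39 were tested. Of these, 17 were called lower and 2 higher with BB2-125, at a median difference of -0.25, where all genes tested had a median of -0.05. VEGFA, the angiogenic growth factor, read 10.44, 10.59 and 10.59 with BB2-125 and 11.52, 11.12 and 11.43 with BB2-162 (-0.82 ± 0.11, adjusted p = 3.53e-05). The BB2-162 arrays matched the hypoxic vehicle mean of 11.41 to within their own range, the BB2-125 arrays lay below it, and both were far above the normoxic 7.76. CXCR4, a chemokine receptor of migrating cells, read 8.06, 8.16 and 7.64 against 9.06, 8.91 and 9.16 (-1.09 ± 0.13), with vehicle means of 8.91 in hypoxia and 5.80 in normoxia. The other members called lower were CITED2, INSIG2, EDN1, PFKFB3, RORA, VLDLR, DDIT4, ZNF395, NRN1, WSB1, ADM, PDK1, EGLN1, PFKFB4 and SLC2A1.

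Not every target followed that direction. BNIP3, which acts in mitophagy, was higher with BB2-125, with 12.39, 12.37 and 12.41 against 11.79, 11.56 and 11.46 (0.79 ± 0.10), and ANGPTL4 was the other member called higher. LOX, which cross-links collagen, read 5.98, 5.73 and 5.99 against 5.44, 5.60 and 5.59. It was not called (0.36 ± 0.16, interval 0.03 to 0.68, adjusted p = 0.0965), and both compounds were far below the hypoxic vehicle mean of 7.60. EGLN3, the hypoxia-induced prolyl hydroxylase, read 8.11, 8.38 and 8.45 against 8.12, 7.90 and 8.18 and overlapped, with an interval from -0.01 to 0.50. Its means lay beside the normoxic 8.20 and below the hypoxic 10.46 with either compound. SLC2A1, the glucose transporter, was called at -0.30 ± 0.11 (adjusted p = 0.0457), but the call was lost in 12 of 19 alternative analyses, where the adjusted p reached 0.218. Without BB2-125 replicate 1 the targets called lower numbered 10. The separate lists of glycolysis and collagen-modifying genes leaned the other way, with medians of 0.10 and 0.22. Of their tested members 8 of 19 and 6 of 17 were called higher with BB2-125, and 1 in each was called lower. Without BB2-162 replicate 3 those called higher numbered 3 in each. Measured from the hypoxic vehicle mean, the median over the 39 targets was -0.35, -0.12 and -0.26 in the BB2-125 arrays and 0.15, -0.13 and 0.06 in the BB2-162 arrays, so these array medians overlapped narrowly.

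Among the HIF subunits and their partners 6 of 16 tested genes were called lower with BB2-125 and 0 higher. They were CITED2, CITED4, HIF1A, EPAS1, VHL and EGLN1. HIF1A mRNA read 10.18, 10.38 and 10.21 against 11.33, 10.71 and 10.70 (-0.66 ± 0.15, adjusted p = 0.00399). The hypoxic vehicle was lower still, at 9.63, and normoxia higher, at 11.74. EPAS1, the other alpha subunit, read 11.09, 11.41 and 11.23 against 12.06, 11.56 and 11.83 (-0.58 ± 0.12), below the hypoxic vehicle's 12.32 with both. CITED2, the competitor for the coactivators, read 10.05, 10.28 and 10.03 against 11.30, 10.98 and 11.10 (-1.01 ± 0.11, 2.01-fold), and its relative CITED4 differed by -0.68 ± 0.10. ARNT and the coactivators were not called. Their intervals were -0.29 to 0.16 for ARNT, -0.62 to 0.16 for EP300 and -0.40 to 0.30 for CREBBP, which lie within a 2-fold difference of these mRNAs either way.

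Receptor kinases and EGF receptor ligands were called about as often as all genes tested, 25% against 26.1%. EGFR read 7.27, 7.86 and 7.41 with BB2-125 and 6.90, 6.57 and 6.63 with BB2-162 (0.81 ± 0.17, adjusted p = 0.0021). Both were far below the hypoxic vehicle mean of 10.10, the BB2-162 arrays furthest. MET overlapped (-0.25 ± 0.19, interval -0.65 to 0.16). EPHA2, an ephrin receptor, was lower with BB2-125 by -0.75 ± 0.12, and HBEGF, an EGF receptor ligand, by -0.72 ± 0.13. AXL was called at 0.38 ± 0.14 although its arrays overlapped, and lost the call in 11 of the 19 alternatives. Of the 16 receptor kinases and EGF receptor ligands tested, 2 were called in each direction, and 1 was called higher without any 1 array other than BB2-162 replicate 1.

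**Figure D3:**
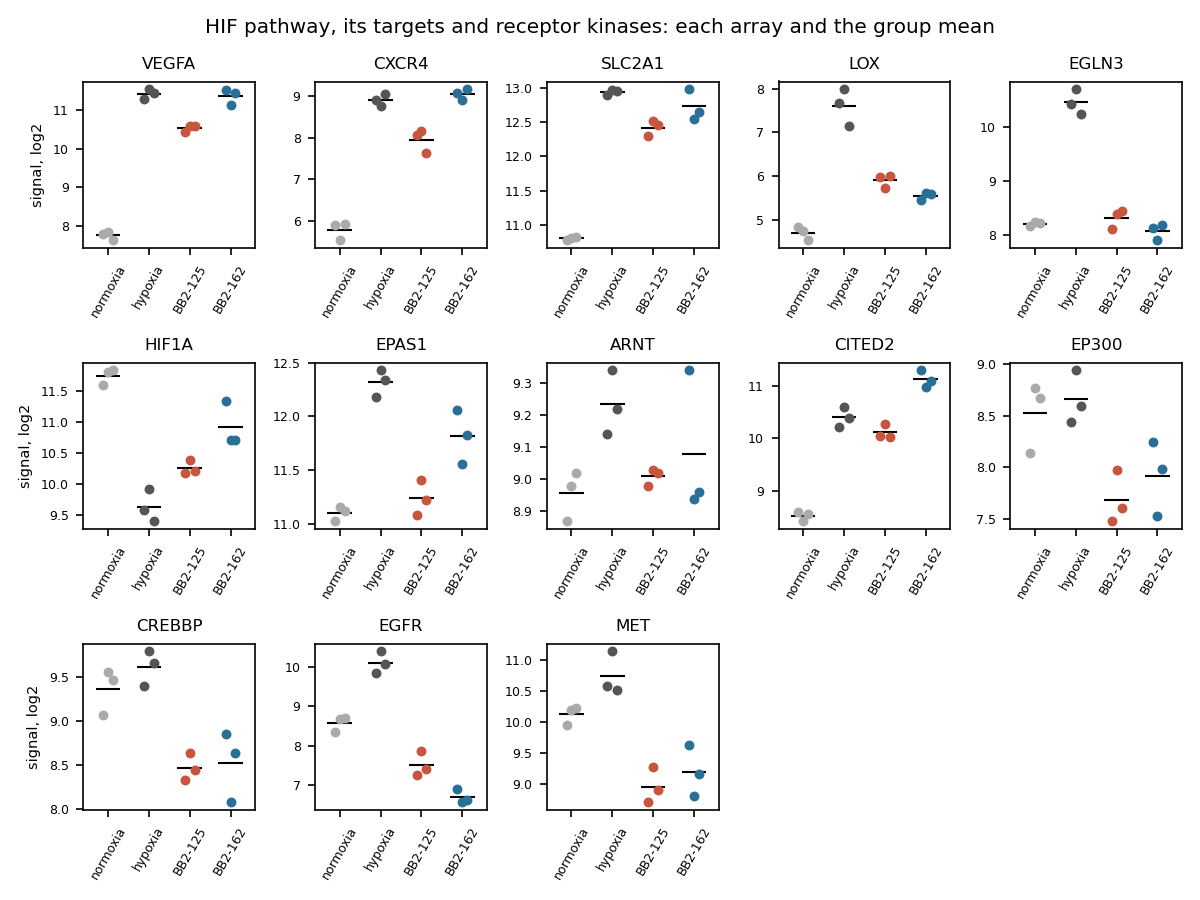
Log2 intensity (vertical axis, scaled to each gene) of HIF targets, HIF subunits, coactivators and receptor kinases in normoxic vehicle, hypoxic vehicle, BB2-125 and BB2-162. Each point is 1 of 3 arrays and the line is the group mean; VEGFA and CXCR4 with BB2-162 sit at the level of the hypoxic vehicle, whereas EGLN3 and LOX sit far below it with both compounds.

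Genes of mitosis formed the group with the largest share of calls among those with at least 10 tested members. Of 38 tested, 33 were called higher with BB2-125 and 0 lower, at a median difference of 0.90. CCNB2, a mitotic cyclin, read 9.46, 9.12 and 9.26 with BB2-125 and 7.68, 7.70 and 7.54 with BB2-162 (1.64 ± 0.13, 3.11-fold). PLK1, the kinase that drives mitotic entry, read 8.77, 8.83 and 8.75 against 7.36, 7.36 and 7.47 (1.39 ± 0.10), with a hypoxic vehicle mean of 8.73 close to BB2-125. FOXM1, the transcription factor of late cell cycle genes, differed by 1.52 ± 0.12 and TPX2, a spindle assembly factor, by 1.45 ± 0.12. Measured from the hypoxic vehicle mean, the median over the 38 genes was 0.48, 0.34 and 0.42 in the BB2-125 arrays and -0.43, -0.46 and -0.49 in the BB2-162 arrays. The 3 arrays of a compound were thus alike and on opposite sides of the vehicle, and BB2-162 replicate 1 did not stand apart here. In bulk RNA, fewer cells in division and less RNA of these genes per cell cannot be told apart.

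The genes upstream of mitosis showed the same direction. Of 41 DNA replication genes tested, 26 were called higher with BB2-125 and 1 lower, at a median of 0.52. TYMS, which makes thymidylate, read 9.25, 9.02 and 9.19 against 7.90, 7.57 and 7.42 (1.52 ± 0.11), ORC1 of the origin recognition complex differed by 1.40 ± 0.10, and GINS1 of the replicative helicase by 1.18 ± 0.10. Of 40 replication-dependent histone genes tested 20 were called higher and 0 lower. H2AC4 read 10.27, 9.90 and 10.07 against 8.34, 8.96 and 8.28 (1.55 ± 0.15), and H3C11 differed by 1.04 ± 0.12, H4C4 by 1.06 ± 0.14 and H3C2 by 0.86 ± 0.11. Histone genes are near-identical copies, so probe sets of different members may share signal. Of 25 tested genes of recombination, Fanconi and mismatch repair, 18 were higher and 0 lower, among them FANCI (1.26 ± 0.15), UBE2T (1.09 ± 0.17), RAD54B (1.03 ± 0.11) and RAD51C (1.03 ± 0.15).

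The controllers of G1 did not share that uniform direction. Of 12 tested D cyclins, their kinases and CDK inhibitors, 3 were higher with BB2-125 and 2 lower, with 0 lower when BB2-125 replicate 1 or 2 was left out, 1 lower without any other array and 5 higher without BB2-162 replicate 1. CCND3 (0.79 ± 0.11) and its partner CDK4 (0.82 ± 0.13) were higher. CDKN1C, an inhibitor, was lower by -0.36 ± 0.11 and RBL1, a pocket protein, higher by 0.40 ± 0.13, with limma adjusted p of 0.0185 and 0.0298, and both calls were lost in several alternatives (7 and 6 of 19).

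The promoters of late cell cycle genes are known for the cell cycle homology region (CHR, TTTGAA) and for CCAAT boxes. They are shown for CCNB2 and PLK1 because these were among the most distinct mitotic genes. Each is the 160 bases before the start in RefSeq's GRCh38.p14, with TTTGAA and CCAAT in capitals, at chr15:59104986-59105145 on the plus strand for CCNB2 and chr16:23678729-23678888 on the plus strand for PLK1.
CCNB2: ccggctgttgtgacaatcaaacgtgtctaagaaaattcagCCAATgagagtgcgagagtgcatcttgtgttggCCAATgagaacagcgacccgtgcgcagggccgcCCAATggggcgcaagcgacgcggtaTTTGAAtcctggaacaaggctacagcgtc
PLK1: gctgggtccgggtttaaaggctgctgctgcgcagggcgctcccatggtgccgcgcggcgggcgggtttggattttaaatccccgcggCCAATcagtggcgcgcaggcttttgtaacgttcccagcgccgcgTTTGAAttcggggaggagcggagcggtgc
In both promoters a single TTTGAA stood close to the start with CCAAT upstream of it. Searching 250 bases before to 50 after the start on both strands, TTTGAA was present in 20 of the 32 mitotic genes with a promoter in the table (62.5%), against 15.4% of all 27305 promoters and 10.4% of those of tested genes. CCAAT was present in 24 of the 32 (75%), against 35.7% of all promoters. Among genes called at least 2-fold higher with BB2-125 the shares were 20.2% for TTTGAA and 47.5% for CCAAT, and among those at least 2-fold lower 9.09% and 34.5%. These letters are a description of the windows and not a measured site.

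Inflammatory, immediate-early and feedback genes ran the other way. Of 29 NF-kB and inflammatory genes tested 18 were lower with BB2-125 and 0 higher (median -0.41), of 24 immediate-early genes 17 were lower and 0 higher (median -0.48), and of 16 DUSP and Sprouty genes 11 were lower and 0 higher (median -0.41). CXCL8, a neutrophil chemokine, read 11.07, 11.22 and 10.86 with BB2-125 and 12.76, 12.89 and 12.92 with BB2-162 (-1.81 ± 0.15, 3.50-fold, adjusted p = 2.93e-07). The hypoxic vehicle mean of 12.16 lay between the compounds. CXCL1, a related chemokine encoded nearby, read 10.29, 10.05 and 9.90 against 11.35, 11.68 and 11.77 (-1.52 ± 0.13), but here both compounds lay above the vehicle's 9.43. CCL20, a chemokine for lymphocytes and dendritic cells, differed by -1.41 ± 0.11 and NFKBIZ, a nuclear IkB protein, by -1.18 ± 0.11.

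Early-response genes did not share 1 position relative to the vehicle. ZFP36, an RNA-binding protein that destabilizes cytokine mRNAs, read 11.04, 11.51 and 11.20 against 12.76, 12.37 and 12.69 (-1.36 ± 0.14), with a vehicle mean of 10.82. NR4A3, a nuclear receptor of the same kind, differed by -1.03 ± 0.11 and MCL1, an antiapoptotic protein, by -1.19 ± 0.13, the latter with a vehicle mean of 11.30 above both compounds. The median over the immediate-early genes, measured from the vehicle mean, was 0.25 to 0.34 in the BB2-125 arrays and 0.57 to 0.76 in the BB2-162 arrays. DUSP and Sprouty proteins are feedback inhibitors of receptor and MAP kinase signalling. SPRY2 read 8.76, 9.24 and 8.83 against 10.60, 9.98 and 10.11 (-1.29 ± 0.14). DUSP10 (-0.86 ± 0.15) was above the vehicle with both compounds and SPRED1 (-0.62 ± 0.09) below it with both. DUSP4 differed by -0.83 ± 0.09. For the DUSP and Sprouty list the medians from the vehicle were -0.03 to 0.03 with BB2-125 and 0.45 to 0.60 with BB2-162. Without BB2-125 replicate 1 the DUSP and Sprouty genes called lower numbered 7.

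NF-kB dimers bind kappa B sites, for which the letters GGANTTTCC were searched on both strands. Promoters are shown for CXCL1, CXCL2, CXCL8 and TNFAIP3, the last an inhibitor of NF-kB signalling; CXCL2 and TNFAIP3 were picked after their values were seen. Each is again 160 bases before the start in RefSeq's GRCh38.p14 with the match in capitals, and the TNFAIP3 match is on the opposite strand. They lie at chr4:73869233-73869392 (plus), chr4:74099196-74099355 (minus), chr4:73740409-73740568 (plus) and chr6:137867099-137867258 (plus), in the same order.
CXCL1: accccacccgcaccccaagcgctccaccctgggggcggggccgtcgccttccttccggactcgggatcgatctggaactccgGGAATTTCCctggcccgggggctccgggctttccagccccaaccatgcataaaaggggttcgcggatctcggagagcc
CXCL2: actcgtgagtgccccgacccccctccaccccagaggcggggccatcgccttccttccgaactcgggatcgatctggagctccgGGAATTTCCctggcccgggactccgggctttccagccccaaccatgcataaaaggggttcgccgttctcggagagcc
CXCL8: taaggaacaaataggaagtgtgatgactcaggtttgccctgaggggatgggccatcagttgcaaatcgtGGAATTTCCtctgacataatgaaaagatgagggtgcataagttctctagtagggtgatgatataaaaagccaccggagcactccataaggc
TNFAIP3: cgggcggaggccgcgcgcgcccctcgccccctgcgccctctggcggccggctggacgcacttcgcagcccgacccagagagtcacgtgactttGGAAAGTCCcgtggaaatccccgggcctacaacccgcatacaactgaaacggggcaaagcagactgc
The 3 chemokine promoters carry the identical match, and the CXCL1 and CXCL2 promoters resemble each other along their length. Promoter letters do not show whether the probe sets of these genes share signal, which was not tested. TNFAIP3 differed by -1.47 ± 0.18 and CXCL2 by -1.41 ± 0.14. The kappa B letters were present in 12 of 25 NF-kB and inflammatory genes with a promoter (48%), against 1.64% of all promoters. Among genes at least 2-fold lower with BB2-125 they were present in 7 of 55 (12.7%), and among those at least 2-fold higher in 1 of 183 (0.546%). The 7 were CXCL1, CXCL2, CXCL8, KDM6B, NFKBIZ, NR4A3 and TNFAIP3, several of which the list itself holds.

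Detoxification and stress genes were mostly higher with BB2-125. NRF2 drives genes of glutathione and quinone metabolism; 20 of its 26 tested targets were higher and 0 lower (median 0.58). NQO1, a quinone reductase, read 11.40, 11.41 and 11.41 against 10.29, 10.10 and 9.94 (1.30 ± 0.11), with vehicle means of 9.64 in hypoxia and 12.58 in normoxia. AKR1B10, an aldo-keto reductase abundant in A549, differed by 1.31 ± 0.16, TXNRD1, thioredoxin reductase, by 0.89 ± 0.11 and HMOX1, heme oxygenase, by 0.78 ± 0.11. Of 10 tested genes of the aryl hydrocarbon receptor 3 were higher and 2 lower. ALDH3A1, an aldehyde dehydrogenase, read 11.07, 11.09 and 11.28 against 9.87, 9.75 and 9.60 (1.40 ± 0.11) and CYP1B1 differed by 1.03 ± 0.13, whereas SLC7A5, an amino acid transporter, was lower by -0.52 ± 0.11. NQO1 counts here too, and 1 gene was lower without BB2-125 replicate 1, BB2-162 replicate 1 or BB2-162 replicate 3.

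ATF4, the factor of the amino acid and integrated stress response, had 17 of 33 tested targets higher with BB2-125 and 4 lower (median 0.28). NUPR1, a stress protein, read 10.49, 10.51 and 10.46 against 9.01, 9.17 and 9.14 (1.38 ± 0.12), with the hypoxic vehicle at 7.89. PSAT1 of serine synthesis (1.41 ± 0.19), asparagine synthetase ASNS (1.14 ± 0.11) and the proapoptotic factor DDIT3 (0.97 ± 0.13) were likewise above the vehicle mean with both compounds. Of 21 tested chaperones and other genes of the endoplasmic reticulum 11 were higher and 2 lower (median 0.38). HSPA5, the main chaperone of that compartment, read 12.02, 12.31 and 12.14 against 11.38, 10.90 and 11.04 (1.05 ± 0.14), and PDIA4 (1.02 ± 0.09), PDIA6 (0.93 ± 0.11) and HSP90B1 (0.78 ± 0.11) followed. Of the 2 lower with BB2-125, 1 was lost when BB2-125 replicate 1 or 2 or BB2-162 replicate 3 was left out.

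Cytosolic heat shock genes were mixed, with 7 of 21 higher and 4 lower. The stress-inducible HSPA6 read 7.75, 7.72 and 7.84 against 8.87, 8.77 and 8.89 (-1.07 ± 0.15), and CRYAB, a small heat shock protein, 9.37, 8.79 and 8.94 against 10.34, 10.18 and 10.18 (-1.20 ± 0.21). Both were above the hypoxic vehicle (5.91 and 7.78) with either compound and higher with BB2-162. HSPB8 (0.60 ± 0.10) and FKBP4 (0.68 ± 0.11), a cochaperone of steroid receptors, were higher with BB2-125. Of 13 tested metallothionein and zinc genes limma called 0, and 2 had an unadjusted p under 0.05; their differences lay between -0.28 and 0.17. Without BB2-125 replicate 1 or BB2-162 replicate 1, 1 was called lower.

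Cholesterol synthesis and mitochondrial genes were higher with BB2-125. Of 18 tested genes of cholesterol synthesis and uptake 13 were higher and 0 lower, at a median of 0.67. EBP, a sterol isomerase, read 10.13, 10.08 and 10.21 against 8.88, 8.88 and 8.55 (1.38 ± 0.12) and NSDHL, a sterol dehydrogenase, 10.04, 9.99 and 10.06 against 9.02, 8.85 and 8.63 (1.20 ± 0.11). For both, BB2-125 lay nearer the normoxic vehicle (10.39 and 10.47) and BB2-162 nearer the hypoxic one (8.48 and 9.03). FDPS, which makes farnesyl diphosphate, differed by 1.01 ± 0.12 and HMGCS1, at the head of the pathway, by 0.91 ± 0.11. Fatty acid genes were less uniform: 6 of 20 were higher and 1 lower, among them the desaturase FADS2 (0.69 ± 0.11), ELOVL6 (0.51 ± 0.11) and ACACA (0.53 ± 0.14), with FADS3 lower by -0.49 ± 0.11. That count rose to 13 higher without BB2-162 replicate 1, and fell to 3 without BB2-125 replicate 2 or BB2-162 replicate 3 and to 2 without BB2-162 replicate 2.

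Of 27 tested genes of the tricarboxylic acid cycle 17 were higher with BB2-125 and 1 lower (median 0.38). Beside IDH1, the mitochondrial IDH2 read 9.36, 9.26 and 9.49 against 8.30, 8.24 and 8.09 (1.16 ± 0.10), SDHC of succinate dehydrogenase differed by 0.98 ± 0.13 and PDK3, a kinase that restrains pyruvate dehydrogenase, by 0.66 ± 0.11. A second, dimmer SDHC probe set differed by 0.65 ± 0.13. The count of higher genes was 9 without BB2-162 replicate 3, 10 without BB2-125 replicate 1, and 11 without BB2-125 replicate 3 or BB2-162 replicate 2. Of 32 tested respiratory chain genes 21 were higher and 1 lower (median 0.45), with ATP5MC1 of ATP synthase at 0.82 ± 0.12, NDUFV1 and NDUFA9 of complex I at 0.73 ± 0.11 and 0.67 ± 0.10, and CYC1 of complex III at 0.60 ± 0.10. Of 43 mitochondrial ribosomal proteins 28 were higher and 0 lower, led by MRPS9 (0.93 ± 0.12) and MRPS27 (0.91 ± 0.11). Cytosolic ribosomal proteins differed little: 4 of 36 were called, RPL10A at 0.39 ± 0.10 the largest, beside the 16.7% of all genes called higher. That count was 2 without BB2-125 replicate 1, 7 without BB2-162 replicate 1 and 1 without BB2-162 replicate 3. Glycolysis was called higher in 8 of 19 and lower in 1, with PFKP at 0.66 ± 0.15, ALDOC at 0.60 ± 0.14 and ENO2 at -0.47 ± 0.11. The glycolysis genes called higher numbered 5 without BB2-125 replicate 2 or 3 and 3 without BB2-162 replicate 2 or 3.

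Protein breakdown pathways shared the direction of the mitochondrial genes. Of 33 tested proteasome subunits 17 were higher with BB2-125 and 0 lower, PSMB6 (0.82 ± 0.13) and PSMB7 (0.75 ± 0.10) of the catalytic ring among them, and 10 were higher without BB2-162 replicate 3. Of 33 lysosomal genes 18 were higher and 0 lower. LIPA, the lysosomal acid lipase, read 8.22, 7.94 and 7.99 against 7.18, 6.74 and 6.38 (1.28 ± 0.16), and GRN, progranulin, 9.43, 9.43 and 9.69 against 8.61, 8.16 and 8.15 (1.21 ± 0.13). The protease CTSL (1.0 ± 0.12) and the hexosaminidase HEXA (1.07 ± 0.14) followed. Of 27 autophagy genes 13 were higher and 0 lower, with ATG5 at 0.71 ± 0.13, ULK2 at 0.63 ± 0.10 and PINK1 at 0.62 ± 0.12. That count was 8 without BB2-125 replicate 1, BB2-162 replicate 2 or BB2-162 replicate 3.

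RNA-processing and chromatin genes had called shares of 28.1% for splicing factors, 25% for ribosome biogenesis, 34.5% for elongation factors and 35% for histone demethylases. Of all genes tested 26.1% were called, 16.7% higher and 9.43% lower with BB2-125. Of 32 SR and hnRNP splicing factors 8 were lower and 1 higher, with SRSF7 at -0.49 ± 0.10 and HNRNPK at 0.34 ± 0.10. The 8 became 3 without BB2-125 replicate 1, BB2-162 replicate 1 or BB2-162 replicate 3, and 5 without BB2-125 replicate 2 or 3. Ribosome biogenesis had 8 of 32 higher and 0 lower, led by WDR12 (1.07 ± 0.14) and BOP1 (0.79 ± 0.10). A second, dimmer BOP1 probe set differed by 0.49 ± 0.15. The elongation factors ELL2 (-0.83 ± 0.13) and AFF4 (-0.76 ± 0.13) were lower with BB2-125, and 5 genes of their list of 29 were called in each direction. Those higher numbered 2 without BB2-162 replicate 2 and 3 without any 1 of the other arrays except BB2-162 replicate 1. KDM6B, a demethylase of lysine on histone H3, read 8.61, 8.92 and 8.72 against 10.05, 9.73 and 10.29 (-1.28 ± 0.14), the largest difference of the 20 histone demethylases tested.

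Matrix, surface and secreted genes divided within their groups. SERPINH1, the collagen chaperone (0.72 ± 0.12), PLOD1, a lysyl hydroxylase (0.71 ± 0.12), and P3H2, a prolyl hydroxylase of collagen, were higher with BB2-125. P3H2 read 7.45, 7.78 and 7.62 against 6.64, 6.01 and 5.60 (1.53 ± 0.20). Collagen-modifying genes as a group had 6 of 17 higher and 1 lower, with 3 higher without BB2-125 replicate 2 or 3 or BB2-162 replicate 3, and 3 lower without BB2-162 replicate 1. Of 27 genes of the TGF-beta response and the epithelial-mesenchymal transition 6 were lower and 2 higher, which holds opposed members: PMEPA1 (-0.90 ± 0.11) and SMAD7 (-0.84 ± 0.11), feedback inhibitors of TGF-beta, were lower beside SNAI2, and ID1, a target of BMP signals, was higher at 1.39 ± 0.15. Those called higher numbered 6 without BB2-162 replicate 1 and 1 without any 1 of BB2-125 replicates 2 and 3 and BB2-162 replicates 2 and 3. The called share of this list, 29.6%, was near the 26.1% of all genes tested.

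The fibrinogen chains were higher with BB2-125, with FGB at 9.02, 8.48 and 8.66 against 7.46, 7.36 and 6.88 (1.49 ± 0.17), FGG at 1.52 ± 0.21 and FGA at 1.16 ± 0.12. Complement protease C1S was also higher (0.93 ± 0.12), whereas LCN2, an iron-scavenging secreted protein, was lower by -1.02 ± 0.14. Among acute-phase and complement genes as a whole 5 of 19 were higher and 4 lower, the latter 2 without BB2-125 replicate 3. MUC5B, a gel-forming airway mucin, read 7.59, 7.50 and 7.63 against 9.04, 8.75 and 9.03 (-1.36 ± 0.20). Lung lineage genes had 4 of 20 lower and 0 higher, SOX9 (-0.75 ± 0.10) and LPCAT1 (-0.59 ± 0.09) among them, with 8 lower without BB2-162 replicate 1 and 2 without BB2-125 replicate 1. Interferon-stimulated genes differed in both directions in small numbers, 2 of 22 higher and 3 lower, IRF1 at -0.75 ± 0.13 and OAS1 at 0.57 ± 0.13. Of them 4 were higher without BB2-162 replicate 1 and 1 was lower without BB2-162 replicate 2. The called shares, 20% of lung lineage genes and 22.7% of interferon-stimulated genes, were below the 26.1% of all genes tested.

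The groups of this paragraph had called members in both directions. Called shares were 50% for prostaglandin genes, 42.3% for p53 targets, 35% for plasminogen and metalloproteinase genes and 33.3% for iron genes. These were above the 26.1% of all genes tested, and those of the BCL2 family (29.4%) and of integrins and laminins (27.8%) were near it. Of 16 prostaglandin genes 6 were higher with BB2-125 and 2 lower: PTGES, a prostaglandin E synthase, differed by 0.85 ± 0.10 and AKR1C3 by 0.95 ± 0.16, and the receptor PTGER4 by -0.59 ± 0.09. Of 26 p53 targets 9 were higher and 2 lower, with CCNG1 at 0.81 ± 0.19, GADD45A at 0.76 ± 0.13 and DDB2 at 0.67 ± 0.11; 4 were higher without BB2-162 replicate 3 and 0 lower without BB2-125 replicate 1. Of 17 members of the BCL2 family 4 were higher, BAK1 (0.52 ± 0.13) and PMAIP1 (0.43 ± 0.11), both proapoptotic, among them, and MCL1 was the 1 lower (3 were lower without BB2-162 replicate 1). Of 18 integrins and laminins 4 were higher, with ITGAV at 0.81 ± 0.15 and LAMB1 at 0.75 ± 0.14, and LAMA5 was lower at -0.64 ± 0.12; without BB2-162 replicate 2 the counts were 2 higher and 3 lower. Of 20 genes of plasminogen activators, metalloproteinases and their inhibitors 4 were higher and 3 lower, MMP24 at 1.06 ± 0.12 and TIMP2 at 0.62 ± 0.10 against MMP1 at -0.74 ± 0.16; without BB2-162 replicate 1 the lower ones numbered 5, and without BB2-125 replicate 1 or BB2-162 replicate 3 the higher ones numbered 2. Of 15 iron genes 4 were higher and 1, BMP6 (-0.56 ± 0.10), was lower, with 2 higher without BB2-125 replicate 3, BB2-162 replicate 2 or BB2-162 replicate 3.

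**Figure D4:**
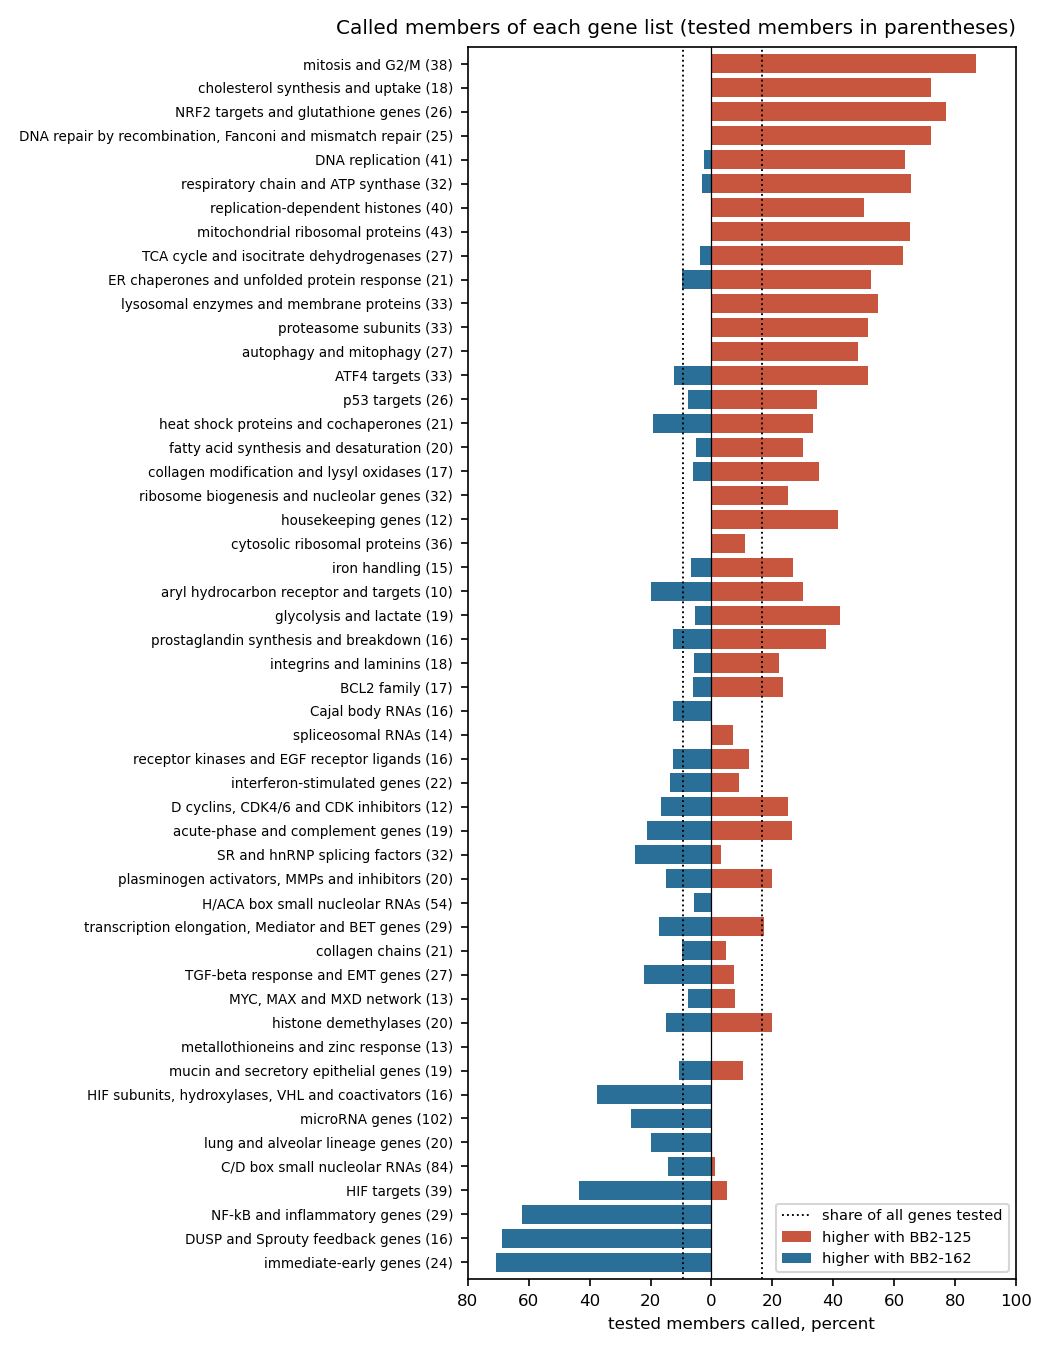
Share of the tested members of each gene list that was called (horizontal axis, percent), red bars to the right for higher with BB2-125 and blue bars to the left for higher with BB2-162, lists ordered by median difference and limited to those with at least 10 tested members. Dotted lines mark the shares over all genes tested, 16.7% and 9.43%; mitosis stands at the top and the immediate-early genes at the bottom.

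**Figure D5:**
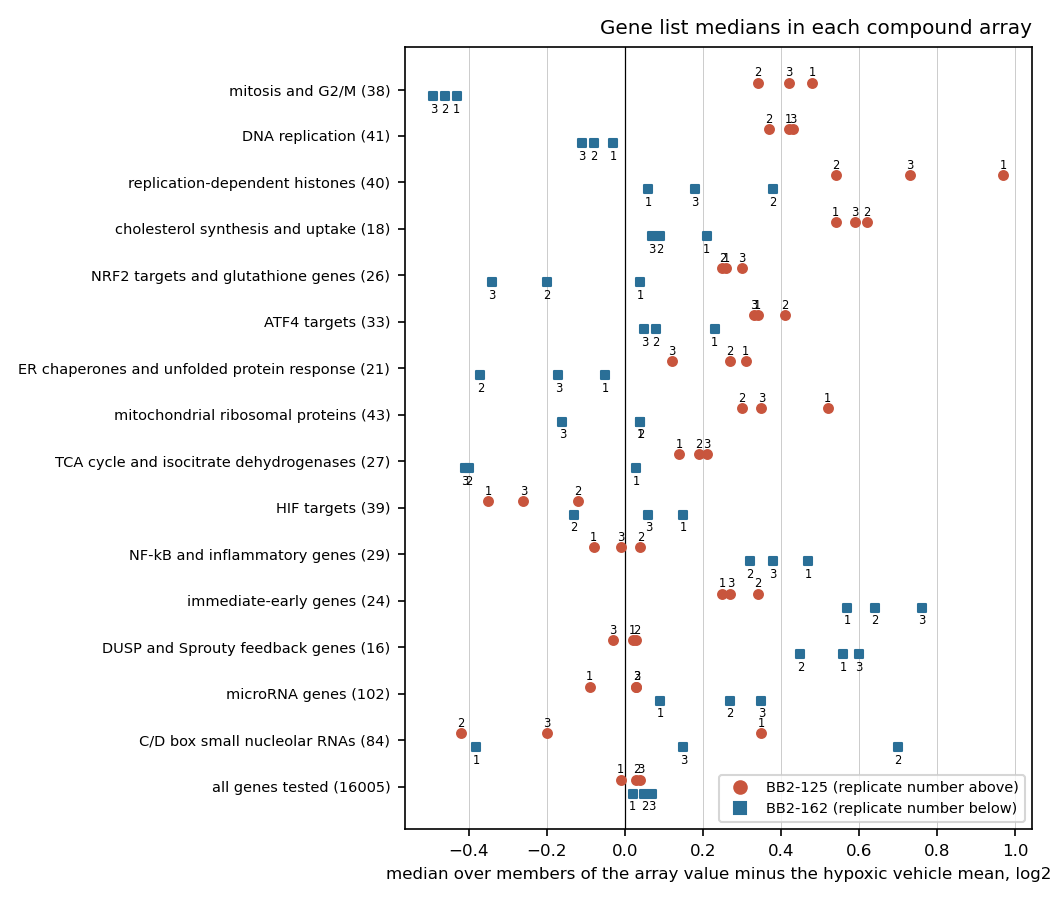
Median over the members of a list of each array's value minus the hypoxic vehicle mean (horizontal axis, log2), for the 3 BB2-125 arrays (circles) and the 3 BB2-162 arrays (squares), with replicate numbers beside the points and tested members in parentheses. The mitotic genes lie on opposite sides of the vehicle in the 2 compounds, at 0.34 to 0.48 and at -0.49 to -0.43, whereas the C/D box small nucleolar RNAs overlap.

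MicroRNA genes were lower with BB2-125 where they were called. Of 102 microRNA genes tested 27 were lower and 0 higher, and 9 of the 102 were at or below the dim level with a compound. The share called, 26.5%, was near the 26.1% of all genes tested, of which 16.7% were higher and 9.43% lower. The list thus differed from all genes in direction and not in the share called. The dimmest group of all genes also leaned lower, with 246 lower and 199 higher. The part of signal strength in the microRNA counts was not tested. The microRNA probe sets read primary or precursor transcripts and not the mature microRNA. The mature sequences of the genes below are shown because they fall into known clusters and seed families; they are RefSeq's, GRCh38.p14, with the seed (bases 2 to 8) in capitals, and 81 of the 102 genes had a hairpin in the table. MIR27A, MIR221 and MIR222 were chosen after their values were seen.
hsa-miR-23a-3p: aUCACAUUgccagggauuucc
hsa-miR-27a-3p: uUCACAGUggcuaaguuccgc
hsa-miR-24-3p: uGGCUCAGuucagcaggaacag
hsa-miR-365a-3p: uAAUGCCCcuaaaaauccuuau
hsa-miR-221-3p: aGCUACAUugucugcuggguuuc
hsa-miR-222-3p: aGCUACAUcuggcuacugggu
hsa-miR-21-5p: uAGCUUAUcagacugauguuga
The sequences of hsa-miR-221-3p and hsa-miR-222-3p share their seed, and the other 5 each have their own. MIR23A, MIR27A and MIR24-2 lie within 373 bases at chr19:13836287-13836659 on the minus strand and are known to come from 1 primary transcript.

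The 3 genes of that cluster differed together. MIR24-2 read 5.05, 5.22 and 4.74 with BB2-125 and 7.55, 6.22 and 6.79 with BB2-162 (-1.85 ± 0.27), MIR23A 6.55, 7.15 and 6.90 against 8.20, 7.93 and 8.21 (-1.25 ± 0.16) and MIR27A 6.26, 6.37 and 6.40 against 7.31, 7.41 and 7.81 (-1.17 ± 0.17). Since they share a transcript they are not independent measurements. MIR365A, which has a near-identical copy elsewhere in the genome, read 5.71, 5.99 and 5.70 against 7.97, 7.31 and 7.60 (-1.83 ± 0.16). MIR21 differed by -0.88 ± 0.12, with 8.51, 8.45 and 8.66 against 9.53, 9.33 and 9.39. MIR221 and MIR222, neighbours on the X chromosome at chrX:45746157-45747124, differed by -1.16 ± 0.19 and -0.71 ± 0.12. Both were below the dim level with BB2-125, and counted from that level the differences were -1.16 and -0.30. Without BB2-162 replicate 1 the microRNA genes called lower numbered 40, without BB2-162 replicate 3 they numbered 14 and without BB2-125 replicate 1 they numbered 16.

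Small nuclear and nucleolar RNAs differed between arrays of the same compound. The median of the 84 tested C/D box RNAs, measured from the vehicle mean, was 0.35, -0.42 and -0.20 in the BB2-125 arrays and -0.38, 0.70 and 0.15 in the BB2-162 arrays, so the groups overlapped. Of these 12 were called lower and 1 higher with BB2-125. That count was 34 lower without BB2-162 replicate 1, 21 without BB2-125 replicate 1, 5 without BB2-162 replicate 3 and 3 without any 1 of the other 3 arrays. SNORD13P2 read 6.74, 6.13 and 5.89 against 7.34, 7.81 and 7.84 (-1.41 ± 0.18), SNORD116-21, 1 of many near-identical copies, differed by -1.43 ± 0.22, and SNORD77 was higher at 0.90 ± 0.23. Among 54 H/ACA box RNAs 3 were lower, a number that ran from 0 to 19 as single arrays were left out: 19 without BB2-162 replicate 1, 7 without BB2-125 replicate 1 and 0 without any 1 of the other 4. VTRNA1-1, a vault RNA, was called at -1.74 ± 0.47 with overlapping arrays, 7.92, 5.82 and 6.76 against 7.40, 9.71 and 8.62, and lost the call in 4 alternatives. The RNA was isolated on spin columns, which retain short RNAs unevenly, and the part of that step in these values was not tested.

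Some markers of other cell types gave signal. The leukocyte marker list includes CD68, at a mean of 11.04 over the 6 arrays, which makes up most of its sum, and TYROBP at 7.34, while PTPRC and MS4A1 were below the dim level. COL1A1 (7.75) and CLDN5 (7.64) were the brightest fibroblast and endothelial markers. For fibroblasts 5 of 10 markers had a mean above the dim level, and their summed signal was 9.07 to 9.16 with BB2-125 and 9.18 to 9.40 with BB2-162, which do not overlap; their part in the results was not tested. PDGFRB was the 1 marker of the 5 tested that was called, at -0.34 ± 0.10, a call lost in 7 of 18 alternatives. Leukocyte markers summed to 11.27 to 11.36 and 11.29 to 11.38 and endothelial markers to 8.90 to 9.09 and 9.0 to 9.30, with 0 of 7 and 0 of 8 tested members called by limma (2 and 2 at an unadjusted p under 0.05). Without BB2-162 replicate 1, 2 were called lower in each. The epithelial sum was 14.55 to 14.70 with BB2-125 and 14.22 to 14.59 with BB2-162. Housekeeping genes were not neutral: 5 of 12 were higher with BB2-125 and 0 lower, PPIA at 0.63 ± 0.14, POLR2A at 0.52 ± 0.15, HPRT1 at 0.50 ± 0.13 and GUSB at 0.47 ± 0.10, and their median difference was 0.15. The housekeeping count was 3 without BB2-125 replicate 1, BB2-125 replicate 2 or BB2-162 replicate 3.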

How the data were processed

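The authors deposited a linear intensity for each probe set of each array. RMA is named in the submitters' processing notes. The software, its version and the build: not given in the sources used here. The log2 was taken here. Of 28869 probe sets, 19310 had 1 gene symbol in the platform annotation, 1752 several and 7807 none. Symbols were updated through Entrez IDs, found for 19279. The brightest probe set stood for each of 18377 genes, and 2372 genes not above an array's 25th percentile on at least 3 arrays were left out.

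Differences were fitted with limma 3.58.1 in R 4.3.3 as means of 5 groups over all 15 arrays (10 residual and 7.96 prior degrees of freedom), checked on simulated data. The number of arrays limits the precision. Named genes were the 12 largest called, non-overlapping differences in each direction, the 4 members (fewer in some lists) with the lowest p of every list, and 13 genes of HIF and migration whatever their values. The members and the gene lists were chosen with earlier results of these data known. Lists are described by counts and medians. Values of the compounds beside the vehicle share the vehicle arrays. Replicate numbers were checked as a pairing: deviations of same-numbered arrays of the compounds correlated at -0.176, -0.403 and 0.165. Those of differently numbered arrays correlated at -0.138 to 0.324. The numbers were not used to pair arrays, although 3 correlations cannot exclude a pairing. Alternatives changed the filter, arrays fitted, scaling, variance prior, array weights, replicate block, probe set choice and threshold, and left out each array in turn.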

Additional observations from a re-analysis of the deposited data

Results flagged for a closer look

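For 35 of the 236 named genes, 13 of them among the 24 largest differences described above, the compound means lay on opposite sides of the hypoxic vehicle. Each compound was called against it, and the difference between the compounds was itself called by limma. Of all 16005 genes tested, 169 met the same rule, 135 higher and 34 lower with BB2-125. Many named genes were picked for a large difference or a low p, so their share does not stand for all genes. Both changes from the vehicle use the same vehicle arrays, so they are given side by side and the difference between the compounds is the value to read. Among the largest, higher with BB2-125 by that difference were UPK1B by 2.10 (0.88 with BB2-125 and -1.22 with BB2-162 from the vehicle), RRM2 by 1.98 (0.78 and -1.20), CDKN3 by 1.87 (1.0 and -0.87), CEP55 by 1.85 (1.24 and -0.61), DLGAP5 by 1.75 (0.98 and -0.77) and PRIM1 by 1.69 (1.12 and -0.57). All but UPK1B act in the cell cycle.

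Lower with BB2-125 were CEACAM5 at -2.32 (-1.60 with BB2-125 and 0.72 with BB2-162 from the vehicle), CST1 at -2.15 (-1.25 and 0.90), EFNA1 at -1.93 (-1.61 and 0.32), MIR24-2 at -1.85 (-1.06 and 0.79), MIR365A at -1.83 (-0.97 and 0.86), CXCL8 at -1.81 (-1.11 and 0.70) and SNAI2 at -1.64 (-0.81 and 0.83).

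The other 22 are given in the same way, the difference between the compounds first and then the value of BB2-125 and of BB2-162 from the vehicle. The replication and repair genes were ORC1 1.40 (0.89 and -0.51), GINS1 1.18 (0.35 and -0.83) and FANCI 1.26 (0.66 and -0.60). The mitotic genes were CCNB2 1.64 (1.22 and -0.42) and TPX2 1.45 (0.71 and -0.74). Genes of the endoplasmic reticulum, sterol synthesis and lysosome were PDIA4 1.02 (0.42 and -0.60), PDIA6 0.93 (0.56 and -0.37), HMGCS1 0.91 (0.52 and -0.39), GRN 1.21 (0.66 and -0.55) and LIPA 1.28 (0.69 and -0.59). Genes of ribosomes were BOP1 0.79 (0.32 and -0.47), WDR12 1.07 (0.59 and -0.48), MRPS27 0.91 (0.32 and -0.59) and MRPL37 0.71 (0.34 and -0.36). A fibrinogen chain, a metalloproteinase and a metalloproteinase inhibitor higher with BB2-125 were FGB 1.49 (0.48 and -1.01), MMP24 1.06 (0.50 and -0.56) and TIMP2 0.62 (0.30 and -0.32). Lower with BB2-125 were EPHA2 -0.75 (-0.34 and 0.42), SPRY2 -1.29 (-0.42 and 0.86), CCL20 -1.41 (-0.54 and 0.87), SOX9 -0.75 (-0.29 and 0.47) and MIR23A -1.25 (-0.60 and 0.64). Groups of 3 arrays are too small for an outlier test, so no array was tested as one.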

How the results depend on the processing

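Of 236 named genes 205 were called, and 0 of these changed sign in an alternative. ARNT, CREBBP and VTRNA1-2, 3 of the 31 not called, did change sign (-0.15 to 0.06, -0.27 to 0.11 and -0.47 to 0.07). Of the 205 called, 157 lost the call in no alternative, and of the 31 not called, 18 gained one in at least 1. The fit of the 6 arrays alone called 2582 genes (727 lower with BB2-125), and the fit of 9 arrays 936 lower. An adjusted p under 0.01 left 2381 (1725 higher, 656 lower). Array weights, which gave BB2-162 replicate 1 a weight of 0.232, called 2295 lower. Leaving out 1 array gave 2645 to 6208 called genes, 1819 to 3499 higher and 826 to 2709 lower. A replicate block gave 4024 calls (2600 higher, 1424 lower), and in the 6 arrays alone with that block 1849 (1393 higher, 456 lower). Whether the replicate numbers pair the arrays is not stated in the labels. Quantile normalization called 4440 (2639 higher, 1801 lower). With no dim filter 4104 were called, and 4192 among genes above the dim level with either compound, an alternative chosen after seeing the data. With 3 arrays a group and a median standard error of 0.12, a 2-fold difference remained possible in 56 uncalled genes, by their intervals.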

Other observations

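Some gene families outside the lists differed between the compounds; they were chosen after their values were seen and carry no test as families. The kinetochore genes of the CENP family had 11 of 18 members higher with BB2-125 and 0 lower, with CENPK at 1.52 ± 0.13, CENPU at 1.34 ± 0.13 and CENPN at 1.30 ± 0.14. Condensin subunits, which compact chromosomes, had 5 of 8 higher and 0 lower; NCAPD2 read 8.67, 8.67 and 8.72 with BB2-125 and 7.33, 6.91 and 7.0 with BB2-162 (1.60 ± 0.11). Of 5 peroxiredoxins 4 were higher and 0 lower, the mitochondrial PRDX3 by 1.21 ± 0.14.

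Circadian clock genes went the other way, with 8 of 15 lower with BB2-125 and 1 higher. PER1, a clock repressor, read 8.56, 8.49 and 8.45 against 9.91, 9.50 and 9.88 (-1.27 ± 0.13), and NR1D1, the REV-ERB alpha receptor, differed by -1.18 ± 0.12. PER2 and NR1D2 each differed by -0.86, and the 1 gene higher with BB2-125 was BMAL1 (0.49 ± 0.13), the activator that these repress. Of 6 RNA decay genes of the ZFP36 and ZC3H12 families 5 were lower, ZC3H12A by -1.31 ± 0.10 and ZFP36L2 by -1.04 ± 0.11. Beside CEACAM5, CEACAM6 was lower by -1.40 ± 0.13 and CEACAM1 by -0.68 ± 0.15, 4 of 11 members in all; their sequences are alike, so signal may be shared.

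Probe sets with no gene symbol or several, which the comparison of genes did not use, were called less often when all probe sets were tested together: 830 of 5691 (14.6%), with 387 higher and 443 lower with BB2-125, against 3987 of 16800 (23.7%) for those with 1 symbol.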
